A study of Mus musculus with 5 samples.

Results

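The chaperonins are ring-shaped chambers in which newly made or unfolded proteins fold. In mitochondria the chamber is built from HSP60, the product of Hspd1, and closed by a lid of HSP10, the product of Hspe1. The cytosolic chaperonin, called TRiC or CCT, has 8 different subunits, encoded by Tcp1, Cct2, Cct3, Cct4, Cct5, Cct6a, Cct7 and Cct8, and is best known for folding actin and tubulin, the proteins of the neuronal cytoskeleton. HSF1 is the transcription factor that switches on chaperone genes after heat and other protein-damaging stress. It binds as a trimer to heat shock elements, which are inverted repeats of the triplet GAA and its complement TTC.

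Genomic binding of HSF1 was examined at these 10 genes, out of 21627 protein-coding genes of the autosomes and the X chromosome. Peaks were taken whose summit fell within a member gene or up to 10 kb from it on GRCm38, which selected 8 of 3646 peaks after NMDA and 2 of 3316 control peaks. The data are HSF1 chromatin immunoprecipitation with sequencing (ChIP-seq) from primary cortical neurons of wild-type Swiss-Webster mouse embryos at embryonic day 16, grown until day 13 in vitro. The NMDA group (2 libraries) received 50 µM NMDA, which opens the NMDA type of glutamate receptor, for 10 min, with 20 min in drug-free medium before collection. The control group (2 libraries) was untreated, as were the neurons of the single input library (sheared chromatin without antibody), so NMDA chromatin has no input of its own. The labels call the libraries of a condition biological replicates, but each deposited list combines them, so values come without a spread between replicates and conditions could not be tested over samples. The sex of the embryos and how many were pooled are not given in the sources used here. Peaks carry no expression values, so the labelled cell type was not checked against markers. Library depth is unknown, and both lists are taken to share the single input that their names mention.

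The mitochondrial pair and the cytosolic ring differed in the strength of their HSF1 sites. One site at the adjoining starts of Hspd1 and Hspe1 was strongly enriched after NMDA and was also present in control neurons. Among the genes of the cytosolic ring, 6 of 8 had a peak after NMDA, most of them weak, against 9.41% of all protein-coding genes. With each peak given only to its nearest protein-coding gene, 5 of 8 had one, without Cct4, against 7.89%. In control neurons 1 of 8 (Cct3) had one, or 12.5%, which is near the 10.3% of all genes.

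The sequence of the shared Hspd1/Hspe1 site is shown because it holds letters that match a heat shock element at the summit. The bases below are the 150 before the annotated start of Hspe1 on the forward strand, chr1:55087998-55088147 (GRCm38.p6, RefSeq), and the capitals mark 4 consecutive inverted triplets, each separated by a pair of other bases.
Hspe1: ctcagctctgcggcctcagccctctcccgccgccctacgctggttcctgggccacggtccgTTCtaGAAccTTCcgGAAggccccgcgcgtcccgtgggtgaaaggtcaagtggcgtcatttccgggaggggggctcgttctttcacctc

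Stretches of 30 bases from members of the cytosolic ring are given for comparison, each with 1 pair of inverted triplets in capitals. Those of Cct3 and Cct7 lie inside the NMDA peaks of these genes, that of Cct2 lies upstream of 1 of its annotated starts, and those of Cct5 and Cct6a lie at starts with no peak within 10 kb in either list. They come from chr3:88297170-88297199 (forward strand), chr6:85452009-85452038 (forward), chr10:117063399-117063428 (reverse), chr15:31601862-31601891 (reverse) and chr5:129787369-129787398 (forward).
Cct3: tcttctctccaGAAggTTCtgccgattccc
Cct7: acgtctcgccaGAAgcTTCtgggcatttct
Cct2: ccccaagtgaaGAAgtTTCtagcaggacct
Cct5: acagcggccgaTTCcaGAAgctactctgcg
Cct6a: gcgtaagacttTTCgaGAAgaccccgcaga

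The Hspd1/Hspe1 site was described first. Hspd1 (chromosome 1, 55077833 to 55088243) is annotated on the reverse strand and Hspe1 (chromosome 1, 55088148 to 55091317) on the forward strand, so that the genes are transcribed away from each other and overlap at their annotated ends. The NMDA peak ran from 55087639 to 55088459 with its summit at 55088067, and the control peak ran from 55087911 to 55088228 with its summit at 55088030. The whole control peak of 318 bp lay within the NMDA peak of 821 bp, of which it covered 38.7%. The 2 summits were 37 bp apart. The overlap fell short of 0.5 of the NMDA peak, so the pair counts as shared by position and not by equal extent.

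The authors' fold enrichment at this site, the ratio of the ChIP signal over background at the summit, was 14.0 after NMDA and 4.21 in control neurons. The −log10 q of the peak was 98.5 after NMDA and 9.36 in control neurons. The site ranked 7 of 3646 by fold in the NMDA list, and 0.192% of NMDA peaks were at or above it. In the control list it ranked 13 of 3316, with 0.392% of peaks at or above it. It was among the strongest sites of both conditions. Relative to the median fold of its own list, which was 2.69 after NMDA and 2.67 in control neurons, the value was 5.20 times the median after NMDA and 1.58 times in control neurons. The lists have separate scales, and peaks of at least 4-fold made up 4.99% of the NMDA list and 0.513% of the control list. The lists had 94 pairs of overlapping peaks, of which 11 lay in Top2b, the gene of a DNA topoisomerase. Over the 83 pairs outside Top2b, the NMDA fold divided by the control fold had a median of 1.05, and 6 pairs reached 2. The ratio at the Hspd1/Hspe1 site was 3.32, rank 3 of the 83. The 3 pairs with the highest control fold, all in Top2b, were not higher after NMDA. They had 9.18-fold after NMDA against 12.4-fold in control neurons, 11.5-fold against 12.2-fold, and 9.94-fold against 11.1-fold. Over all 11 Top2b pairs the ratio ran from 0.737 to 1.44. Outside Top2b, the pair with the highest control fold, on chromosome 2, had 16.4-fold after NMDA against 4.93-fold in control neurons. The next, on chromosome 9, had 3.91-fold against 4.70-fold. These ratios have no error, since the libraries of a condition have no separate values.

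**Figure D1:**
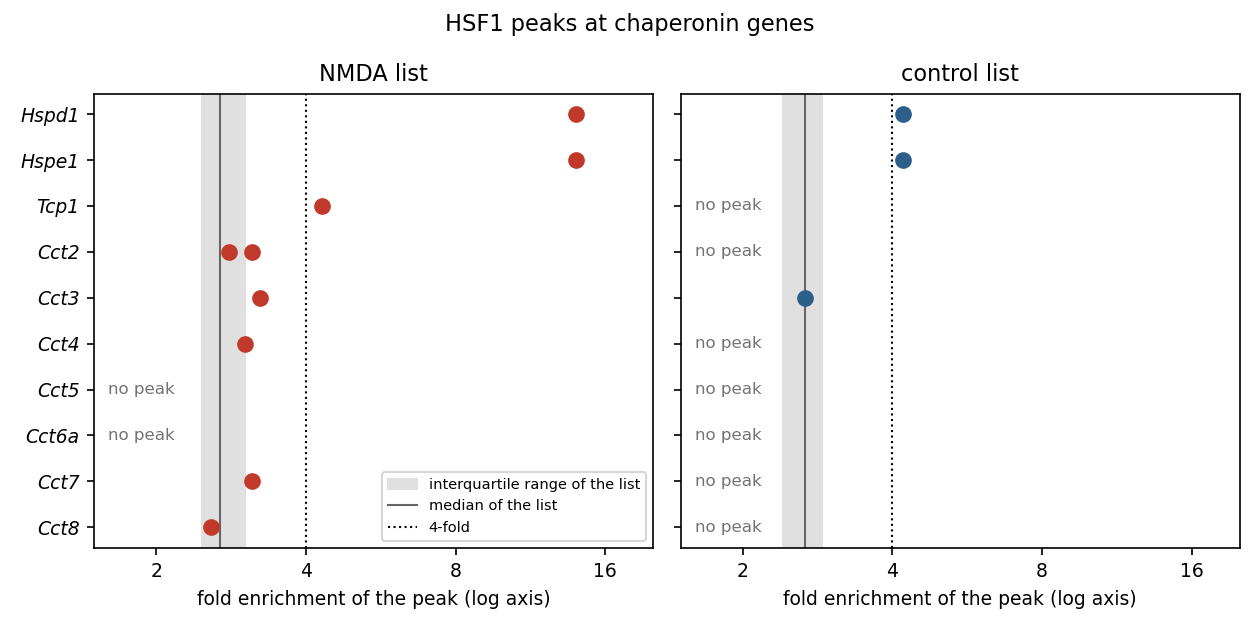
Fold enrichment (log axis) of every HSF1 peak inside or within 10 kb of each chaperonin gene, in the NMDA list (left) and the control list (right). Points are single peaks, the grey band is the interquartile range of all peaks of the list, the solid line its median and the dotted line 4-fold. Hspd1 and Hspe1 share 1 peak, at 14.0-fold after NMDA and 4.21-fold in control neurons, while the cytosolic subunits lie between 2.58-fold and 4.30-fold after NMDA and Cct3 alone has a control peak, at 2.67-fold.

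Annotated starts were then placed against the summits. The NMDA summit lay 81 bp before the start of Hspe1, and the control summit lay 118 bp before it. RefSeq gives 2 starts for Hspd1. The NMDA summit lay 135 bp before the start at 55087932 and 176 bp past the start at 55088243. The control summit lay 98 bp before the first of these and 213 bp past the other. With the start at 55087932, both summits fell in the stretch between the oppositely directed starts of the 2 genes.

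The 4 inverted triplets at this site ran from 55088059 to 55088076, which is from 89 to 72 bp before the start of Hspe1 and from 144 to 127 bp before the Hspd1 start at 55087932. The NMDA summit was inside this run, 0.5 bp from its centre. The control summit was 37.5 bp from the centre, outside the run, and the control peak still contained all of it. Runs of 4 triplets (2 copies of TTCNNGAA, or 2 copies of GAANNTTC, with NN between the copies, each run its own reverse complement, so both strands are covered) were found in 8 of 27025 genes with a promoter window of 300 bases, 250 before and 50 after a start, or 0.0296%. Hspd1 and Hspe1 hold 2 of these 8 places and count the same run. This form of the element was not planned and was added after the data were seen, so its rarity is a description. A match describes the letters only and does not show that HSF1 contacts them.

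**Figure D2:**
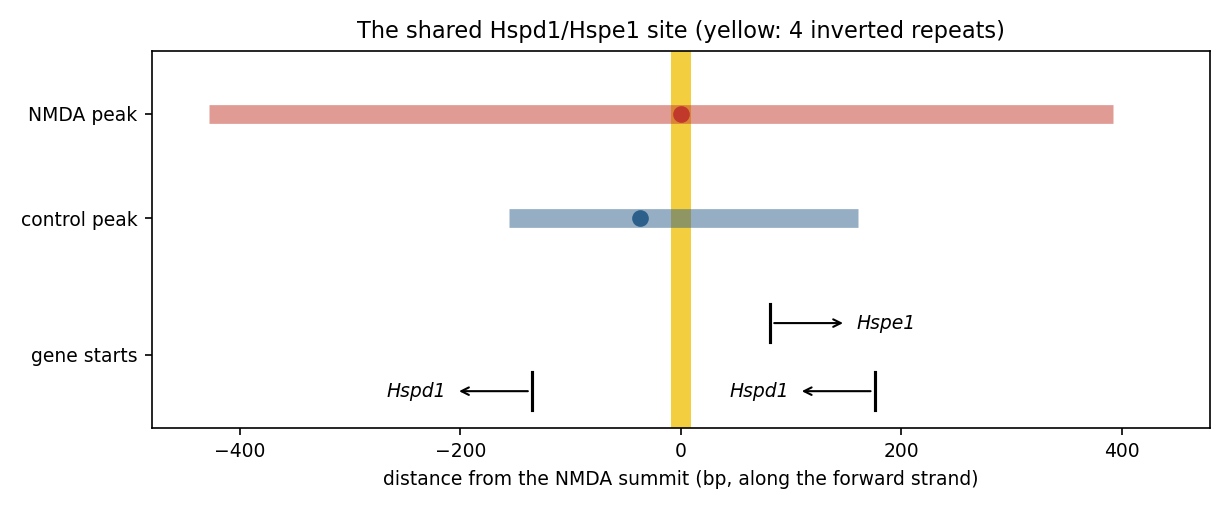
Map of the shared Hspd1/Hspe1 site, with distance from the NMDA summit in bp on the horizontal axis. Bars are the deposited peaks, points their summits, arrows the annotated starts with the direction of transcription, and the yellow band the run of 4 inverted triplets. The NMDA summit falls in the run and the control summit lies 37 bp to its left.

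Counted over all 10 genes, 8 carried an NMDA peak, against 9.41% of all protein-coding genes. The control list had a peak at 3 of 10, against 10.3%. Both lists had a peak at 3 of 10 (Hspd1, Hspe1 and Cct3), against 2.72%, and the NMDA list alone at 5 of 10 (Tcp1, Cct2, Cct4, Cct7 and Cct8), against 6.69%. The control list alone marked 0 of 10, against 7.54% of all genes. Hspd1 and Hspe1 count the same peak. Longer genes meet peaks more often, so genes within the length range of the members, from 3170 to 59088 bp, were also counted. Of these 14045 genes 6.2% had an NMDA peak and 7.36% a control peak. Summits within 1 kb of a gene end, the narrowest window, marked 6 of 10 after NMDA (background 1.93%) and 3 of 10 in control neurons (2.55%), and 3 of 10 after NMDA alone (1.66%). With 5 kb around the gene, 7 of 10 had an NMDA peak (8.17%) and 3 of 10 a control peak (8.94%). With 20 kb, 8 of 10 had an NMDA peak (11.4%) and 3 of 10 a control peak (12.6%). With each peak given only to its nearest protein-coding gene, 6 of 10 had an NMDA peak (7.89%) and 2 of 10 a control peak (8.38%). Peaks of at least 4-fold marked 3 of 10 after NMDA (0.578%) and 2 of 10 in control neurons (0.0462%), and 1 of 10, Tcp1, after NMDA alone (0.559%). The members were chosen with results of these data known, and the shares are therefore descriptions.

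**Figure D3:**
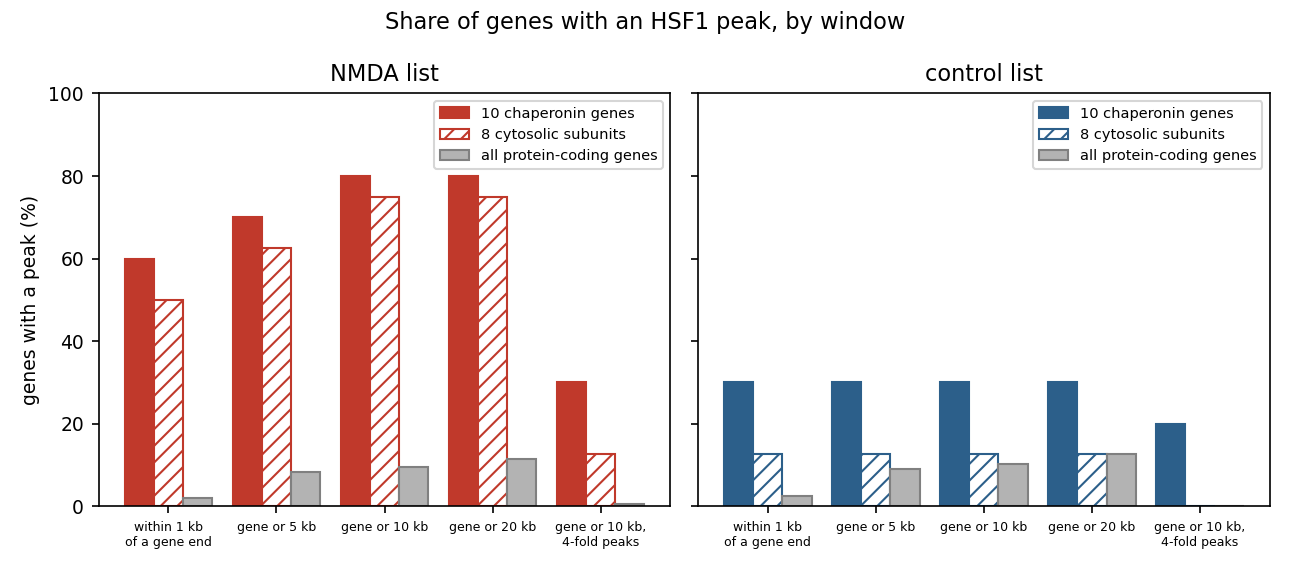
Percentage of genes with an HSF1 peak in the NMDA list (left) and the control list (right), for all 10 chaperonin genes, the 8 cytosolic subunits and all protein-coding genes, under 4 windows and, at the right of each panel, for peaks of at least 4-fold. After NMDA 60.0% to 80.0% of the chaperonin genes have a peak under the 4 windows, and in control neurons 30.0% under each. The 8 cytosolic subunits have 50.0% to 75.0% after NMDA and 12.5% in control neurons under these windows.

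The subunits of the cytosolic ring were then taken in turn. Tcp1 (chromosome 17, 12916329 to 12925067), which encodes the founding subunit after which the complex is named, had the strongest site of the ring. Its NMDA peak, at 12916384 to 12917009, had a fold of 4.30, a −log10 q of 9.80 and rank 148 of 3646. No control peak lay within 10 kb, and the nearest control summit was 42402 bp from the gene. The NMDA summit lay 433 bp past the Tcp1 start. It also lay inside Mrpl18, which encodes a protein of the mitochondrial ribosome and is annotated on the other strand with its start 671 bp from the summit. Of the 8 NMDA peaks at chaperonin genes only those of Tcp1 and of the Hspd1/Hspe1 pair reached 4-fold.

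Cct3 (chromosome 3, 88297135 to 88321766) was the only subunit of the ring with a peak in both lists. The NMDA peak, 88297087 to 88297321, had a fold of 3.23 and a −log10 q of 3.79, and the control peak, 88297096 to 88297693, had a fold of 2.67 and a −log10 q of 1.62. Within its list the NMDA value ranked 505 of 3646, and the control value equalled the median fold of the control list. The summits were 17 bp apart, 18 bp past the annotated start after NMDA and 35 bp past it in control neurons. The pair GAANNTTC printed above lay with its centre 31.5 bp from the NMDA summit and 14.5 bp from the control summit, inside both peaks. Tsacc, annotated on the other strand and encoding a co-chaperone that activates a testis kinase, has a start 154 bp from the NMDA summit.

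Cct7 (chromosome 6, 85451505 to 85468477) had an NMDA peak at 85451896 to 85452465 of 3.12-fold with a −log10 q of 3.30. Its summit was 629 bp past the Cct7 start and 164 bp from a start of Pradc1, which is annotated on the other strand and encodes a protein with a protease-associated domain. The pair GAANNTTC printed above lay 110 bp from this summit. Cct8 (chromosome 16, 87483325 to 87495869) had the weakest site of the group. Its NMDA peak at 87495494 to 87495881 had a fold of 2.58, under the median of the NMDA list, and a −log10 q of 1.40. The peak nevertheless lay at the gene's start, with the summit 117 bp past it.

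Promoter windows covered 62 of the 388 bases of the Cct8 peak and not its summit, so most of its sequence was not analysed here. The last 80 bases before the start, chr16:87495870-87495949 on the reverse strand, lie largely outside the peak. They are shown for comparison with the stretches above, with every triplet GAA or TTC in capitals, and these occur singly, without the spacing of a heat shock element.
Cct8: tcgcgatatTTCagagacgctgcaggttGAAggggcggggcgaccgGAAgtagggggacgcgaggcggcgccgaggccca

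Cct2 (chromosome 10, 117050997 to 117063852) had 2 NMDA peaks, neither at an annotated start. The stronger, at 117062358 to 117062586, had a fold of 3.12 and lay inside the gene, 903 bp past the start at 117063375 and 1380 bp past the start at 117063852. The weaker, at 117047520 to 117047813, had a fold of 2.80 and lay 3359 bp beyond the end of the gene. It was closer to Lrrc10, which encodes a leucine-rich repeat protein of heart muscle, at 870 bp.

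Cct4 (chromosome 11, 22990593 to 23003336) was a member by distance alone. Its NMDA peak, at 22982148 to 22982483 with a fold of 3.01, lay 8324 bp outside the gene and was the farthest inside the window. The summit was 15 bp from a start of Commd1, a gene of copper handling and of NF-κB control. The first peak beyond the window was a control peak of 2.71-fold, 14220 bp from Cct3.

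Cct5 (chromosome 15, 31590800 to 31601846) and Cct6a (chromosome 5, 129787356 to 129846443) had no peak in either list within 10 kb. The nearest summit to Cct5 was 142945 bp away in the NMDA list and 107775 bp in the control list. For Cct6a the distance was 252611 bp in the NMDA list and 605029 bp in the control list. Both genes carried the pair TTCNNGAA at an annotated start, as printed above, from 34 to 27 bp before a start of Cct5 and from 24 to 31 bp past the start of Cct6a. How well reads map to these genes was not analysed here, so the lack of a peak is no evidence of absent binding.

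**Figure D4:**
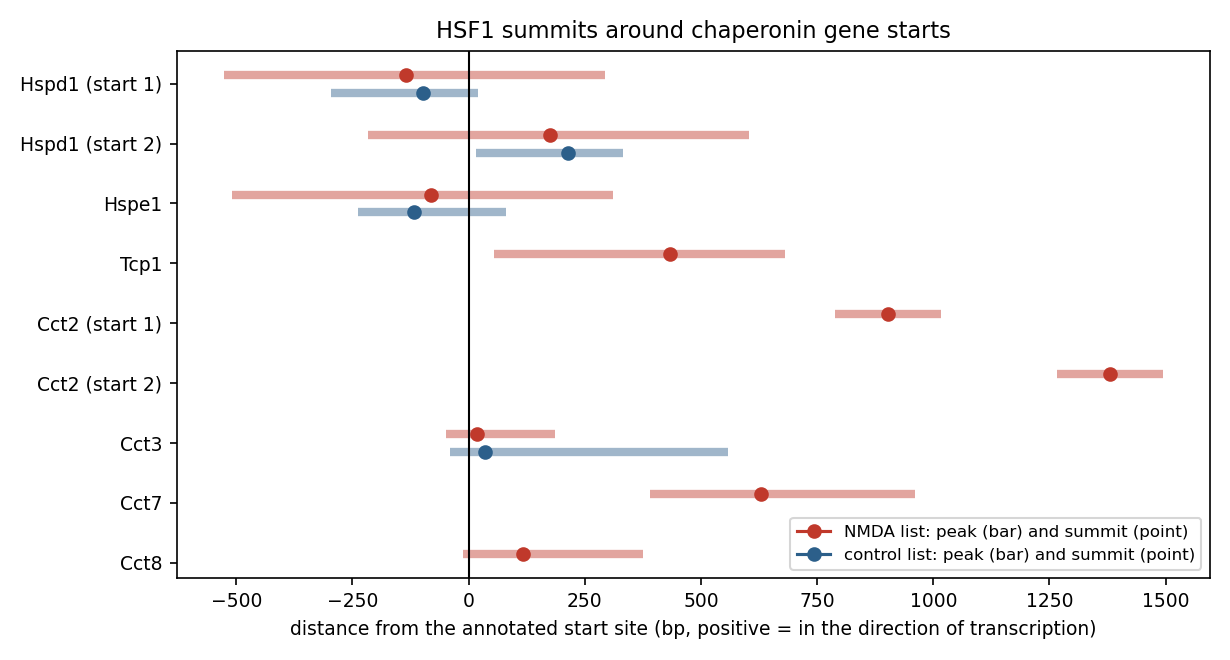
Peaks (bars) and summits (points) of the NMDA and control lists relative to the annotated start sites of the chaperonin genes, in bp, with positive distances in the direction of transcription. Genes drawn with 2 annotated starts have a row for each. Peaks over 2000 bp from a start, such as the weaker peak of Cct2, are left out. Cct5 and Cct6a, which have no peak, and Cct4, which has no promoter window, are not drawn. The Hspd1/Hspe1 and Cct3 summits of both lists lie within 213 bp of a start, while those of Tcp1, Cct7 and Cct2 lie 433 to 1380 bp past it.

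Considered as peaks, the 8 NMDA sites had a median fold of 3.12, against 2.69 over the whole list, and 7 of the 8 were above that list median. All 8 had a q below 0.05, as did 76.3% of NMDA peaks, and 2 of the 8 reached 4-fold, as did 4.99%. Both control sites had a q below 0.05, as did 68.9% of control peaks. Fold values come in steps, and many weak peaks share a value. The 3.12 of Cct2 and of Cct7 was held by 158 NMDA peaks and the 2.58 of Cct8 by 321, so small differences among the cytosolic subunits carry no order. The widths of the 8 NMDA peaks ran from 229 to 821 bp, with a median of 362 bp against 303 bp over the list.

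Heat shock elements were counted in the promoter windows of the 9 members found in the RefSeq table (12 windows). The background was the 27025 genes with a promoter window, which are not limited to protein-coding genes. The pair GAANNTTC was present for 3 of 9 genes (Hspd1, Hspe1 and Cct2), against 9.04% of this background. The pair TTCNNGAA was present for 4 of 9 (Hspd1, Hspe1, Cct5 and Cct6a), against 9.6%. Either pair was present for 5 of 9, against 17%. Each pair is its own reverse complement. The longer forms of 3 triplets, GAANNTTC followed by NNGAA and TTCNNGAA followed by NNTTC, are each other's reverse complement and overlap these pairs. They were present for 2 of 9 (Hspd1 and Hspe1), against 0.662%. Hspd1 and Hspe1 hold the same run of triplets, so 1 run stands for 2 genes in each of these counts. None of the 7 genes of the cytosolic ring with a window had the longer form there. Cct4 was the member without a window and was not searched. These windows reach 50 bases past a start. The pairs in the Cct3 and Cct7 peaks were read from the windows of Tsacc and Pradc1, and no promoter window covered the Tcp1 peak or either Cct2 peak, whose sequence was not analysed here. The Cct8 peak was read only in part.

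The site most like the Hspd1/Hspe1 site was sought among the other overlapping peak pairs outside Top2b, 83 with this site included, by the distance in log2 fold over the 2 lists. The nearest, at 0.325, was a site on chromosome 2 (174858370 to 174858929 in the NMDA list) with 16.4-fold after NMDA and 4.93-fold in control neurons. Its nearest protein-coding gene, Edn3, was 74581 bp away. The next, at 0.338, lay at Hsph1, which encodes an exchange factor of HSP70, with 15.3-fold after NMDA and 3.39-fold in control neurons. The third, at 0.971, lay 213 bp from Ubqln1, which encodes a ubiquitin-binding shuttle protein, with 7.96-fold after NMDA and 2.92-fold in control neurons. Cct3 stood at a distance of 2.22.

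**Figure D5:**
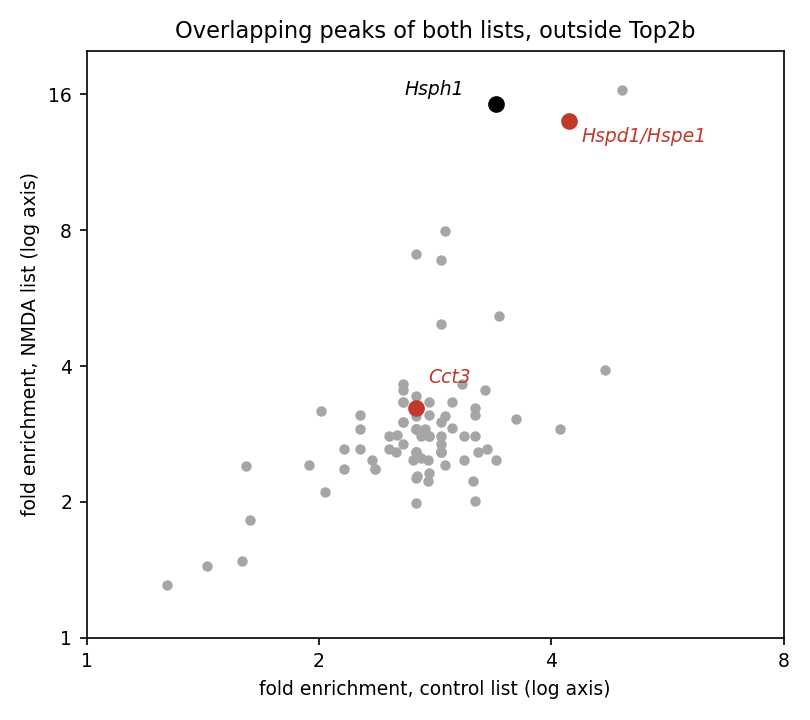
Fold enrichment in the NMDA list (vertical, log axis) against that in the control list (horizontal, log axis) for the overlapping peaks outside Top2b, 1 point per pair. The lists have separate scales. The Hspd1/Hspe1 site lies near Hsph1 and 1 unlabelled site at the top, while Cct3 lies in the main cloud.

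Genes that work with the chaperonins were counted in the same way, without a test of the difference. Of 13 genes related to TRiC, among them the prefoldins that deliver clients to the ring, 1 was marked after NMDA and 1 in control neurons. Both counts are Bbs12, which encodes a chaperonin-like protein, with 3.55-fold after NMDA, and 3.18-fold and 2.57-fold at its 2 control peaks. Of 11 genes for actin, tubulin and tubulin cofactors, 2 had an NMDA peak (Actg1, 2.90-fold, and Tbcd, 2.22-fold) and 2 a control peak (Tbca, 2.77-fold, and Tbcc, 2.61-fold). Of 11 mitochondrial proteostasis genes, each list marked 2. These were Hspa9, the mitochondrial HSP70, with 2.62-fold after NMDA and 2.57-fold in control neurons, and Yme1l1, a protease of the inner membrane, with 2.80-fold after NMDA and 2.36-fold in control neurons. In both genes the peaks of the 2 lists were at different places and did not overlap. The NMDA summit of Hspa9 lay 363 bp outside one end of the gene and its control summit 4876 bp outside the other, and the NMDA summit of Yme1l1 lay inside the gene and its control summit 8112 bp outside. The shares of these 3 lists ran from 7.69% to 18.2%, beside a background of 9.41% after NMDA and 10.3% in control neurons, and beside 80.0% of the chaperonin genes after NMDA.

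Among the other heat shock genes, 3 of 13 HSP70 and HSP110 genes had an NMDA peak (23.1%) and 2 of 13 a control peak (15.4%). Of 11 HSP90 genes and cochaperones, 6 had an NMDA peak (54.5%) and 1 a control peak (9.09%). Over all protein-coding genes the shares were 9.41% after NMDA and 10.3% in control neurons, and the control shares of both lists were near this background. The strongest NMDA sites of these lists were those of Hspa8 (15.4-fold), Hsph1 (15.3-fold) and Hsp90aa1 (8.17-fold), and the Hspd1/Hspe1 value of 14.0 lay between the last 2. In the control list the 4.21-fold of Hspd1/Hspe1 was above the 3.39-fold of Hsph1 and the 2.57-fold of Hspa9 and Fkbp5. The latter 3 were the only genes of these lists with a control peak. The gene lists are not separate. Hspa9 counts here and in the mitochondrial list above, and the mitochondrial and HSP90 lists share a gene without a peak.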

How the data were processed

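Of the 5 libraries, the authors deposited 2 peak lists, 1 per condition, each combining 2 ChIP libraries. The submitters' processing notes list MACS2, BWA, SAMtools, Trimmomatic and FastQC without versions, and the builds GRCm38.p6 and mm10. The sources used here do not give how replicates were merged. The deposited lists give each peak a score, a fold enrichment (a ratio), and the −log10 of its q, among other values. All are the authors' own values, used to describe peaks within a list. Scores were not used. Depth is unknown, so no precision is given.

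Gene positions, starts and promoter sequences came from RefSeq tables of GRCm38.p6. Exon positions were not used here. Summits were assigned to genes with Python 3.11.15, pandas 2.3.3 and numpy 2.4.6. Peaks overlapped when sharing at least 1 bp. The assignment and motif search were tested on simulated data. All 10 members are named. Genes that work with the chaperonins are named if they have a peak. Others are named as the 3 most like sites or as the 3 strongest comparison genes. Top2b, neighbours of a member's peak, and genes with runs of inverted triplets in a promoter window are named too. The members and lists were chosen with earlier results of these data known. Of the mitochondrial list, 2 genes were not analysed here. Promoter sequences were matched by symbol for 9 of 10 members.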

Additional observations from a re-analysis of the deposited data

How the results depend on the processing

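Of 31 other settings 22 kept a value within 1.5 times the reported one, and so did 6 of 6 added after these files were seen. With peaks of at least 4-fold, 3 of 10 member genes had an NMDA peak (Hspd1, Hspe1 and Tcp1), against 0.578% of all protein-coding genes. The NMDA list alone marked 1 of 10 (Tcp1), against 0.559%. Of the 8 cytosolic subunits 1 had an NMDA peak of 4-fold, against the same 0.578%, and 0 had a control peak, against 0.0462%. Fewer peaks enter these counts. Within 1 kb of a gene end, the NMDA list alone marked 3 of 10 genes, against 1.66%. No member pair overlapped by at least 0.5 of both peaks (0 pairs), because each peak of a pair differs in width from the other, while both pairs had summits within 100 bp. Divided by the list median, fold at the Hspd1/Hspe1 site was 5.20 after NMDA and 1.58 in control neurons. These are rescaled values and not counts. The list medians, 2.69 and 2.67, are above 1.5, so both values had to pass that limit. With either order of the triplet pair, 5 of 9 genes had a match, against 17% of genes with a promoter window, Hspd1 and Hspe1 by the same run. Libraries were not left out in turn, since a list merges them. No paired analysis was possible because replicates have no separate values here. What depth limits is unknown.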

Other observations

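The run of 4 inverted triplets found at the Hspd1/Hspe1 site occurred in the promoter windows of 6 other genes. Chordc1, which encodes a cochaperone of HSP90, and Fam149a had an NMDA summit in that window, with 4.87-fold and 3.77-fold, and neither had a control summit there. Kctd18, Arpc2, Gm38873 and Gm41230 had a summit of neither list in theirs. Of the 107 promoter windows that held an NMDA summit, 12.1% had at least 3 inverted triplets, and of the 123 that held a control summit, 4.88% did, against 0.603% of all 32851 windows. Windows of the same gene and of neighbouring genes overlap, and the Hspd1/Hspe1 site counts in 2 windows of each list. In the NMDA list, the sites of Hsph1, of Gm52243, and of 2700049A03Rik with Timm9 also count in 2 windows each. These counts were made after the sequences were seen.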
